A study of Mus musculus with 16 samples.

Results

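Mouse embryonic stem cells without Dgcr8 were followed as they left 2iL, and the messenger RNA of each gene was compared between the medium they started in and 48 h of differentiation. The genes described are those that reached 1 FPKM (fragments scaled to transcript length and to the fragments of the library) in at least 2 of the 4 knockout libraries. This rule kept 12302 of the 41258 entries of the expression table, and 13172 entries that did so in any 2 of the 8 libraries, wild type included, were tested. Of the 12302 genes, 10936 reached 1 FPKM in all 4 knockout libraries, 530 reached it in both 48 h libraries and no 2iL library, and 312 in both 2iL libraries and no 48 h library. A gene of these last 2 kinds passed only through the group where it was high and had to differ, so it is given as a description, with no p. The highest entry left out had a second-highest value of 0.999971 FPKM and the lowest entry kept had one of 1.00006 FPKM, so the edge falls within a continuous range.

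The starting medium, 2iL, holds an inhibitor of MEK, an inhibitor of GSK3 and the cytokine LIF. The knockout groups were Dgcr8-/- cells of the ES1 line in 2iL and the same line after 48 h in N2B27 medium with bFGF and KSR, each with 2 libraries. Wild-type cells, which the column names call v65, were handled in the same 2 media with 2 libraries each and serve as the comparison. All are of the strain 129/C57BL/6 at passages 9 to 11, described in the labels as early embryo. Each genotype is 1 line, so effects of the line and of the deletion cannot be told apart. The design calls the libraries biological replicates without saying what was repeated, so p-values measure the spread between these libraries.

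Dgcr8 is the RNA-binding partner of the nuclease Drosha, and together they cut most primary microRNA transcripts. Cells without it lack most mature microRNAs, among them the miR-290 and miR-302 families that are abundant in embryonic stem cells. Taking away the MEK and GSK3 inhibitors and LIF lets ERK signalling resume, and naive cells then pass towards the formative state of the early post-implantation epiblast. The comparison asks which parts of that passage take place in cells of this genotype.

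The Dgcr8 transcript, named by the genotype label as the deleted gene, stood at 9.11 and 9.33 FPKM in 2iL and 7.84 and 7.8 FPKM at 48 h, while in wild type it went from a mean of 18.7 to 20.8 FPKM. A remaining transcript does not test whether the protein is lost. Its fall in the knockout (log2 change -0.21) was not called without KO 48 h library 1 or 2 (limma adjusted p = 0.055 and 0.061). All 8 embryonic stem cell markers were above 1 FPKM, with a summed level of 2014 and 2107 FPKM in 2iL and 1698 and 1601 FPKM at 48 h. The most abundant marker makes up the largest part of that sum. Single markers rose or fell by 2-fold or more, so the sum does not give the change of each. Of 10 primitive endoderm markers none reached 1 FPKM in 2 libraries, and of 7 trophectoderm markers 2 did. FPKM summed to 475271 to 511732 per knockout library, replicates correlated at 0.987 in 2iL and 0.988 at 48 h on the log2 scale, and read depth is unknown because only FPKM were available. In bulk RNA, fewer cells expressing a gene and less of its RNA per cell cannot be told apart.

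Leaving 2iL moved a large part of the transcriptome of the knockout cells. Of the 12302 genes, 3342 rose and 2842 fell (limma on log2(FPKM + 1), adjusted p below 0.05). Of the rises 494, and of the falls 279, passed the minimum through only 1 knockout group and had to differ, which leaves 2848 rises and 2563 falls among the 11460 other genes. Over all 13172 entries tested, 48.3% were called, 26.5% as rises and 21.8% as falls. At least a 2-fold change was seen for 676 rises and 531 falls, where the shares over all entries tested are 5.14% and 4.05%. A rise of at least 8-fold, on the log2(FPKM + 1) scale that understates changes of low genes, was found for 27 genes and a fall of that size for 16. The change was under 0.5 log2 units in 3060 of the 6184 called genes. The 2iL and 48 h libraries did not overlap in 9262 genes, against 74.2% of all entries tested.

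The median size of the change was larger in genes of low level, while the share called did not follow the level. Among the 3720 genes with a mean under 5 FPKM, the median size of the change was 0.38 log2 units and 50.7% were called. Among the 701 genes at a mean of 100 FPKM or more the median size was 0.16 and 48.5% were called, with 14 rises and 17 falls of at least 2-fold. The median standard error was 0.12 in the former and 0.05 in the latter, and a wider spread by itself raises the median size. Genes that passed through only 1 knockout group and had to differ are included. The part of each in the larger size was not tested. The median change was 0.02 over the 12302 genes. For 10190 genes the 95% interval lay within 1 log2 unit of 0, and for 209 genes that were not called the interval reached past 1 log2 unit, so a 2-fold change there could not be told from none.

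**Figure D1:**
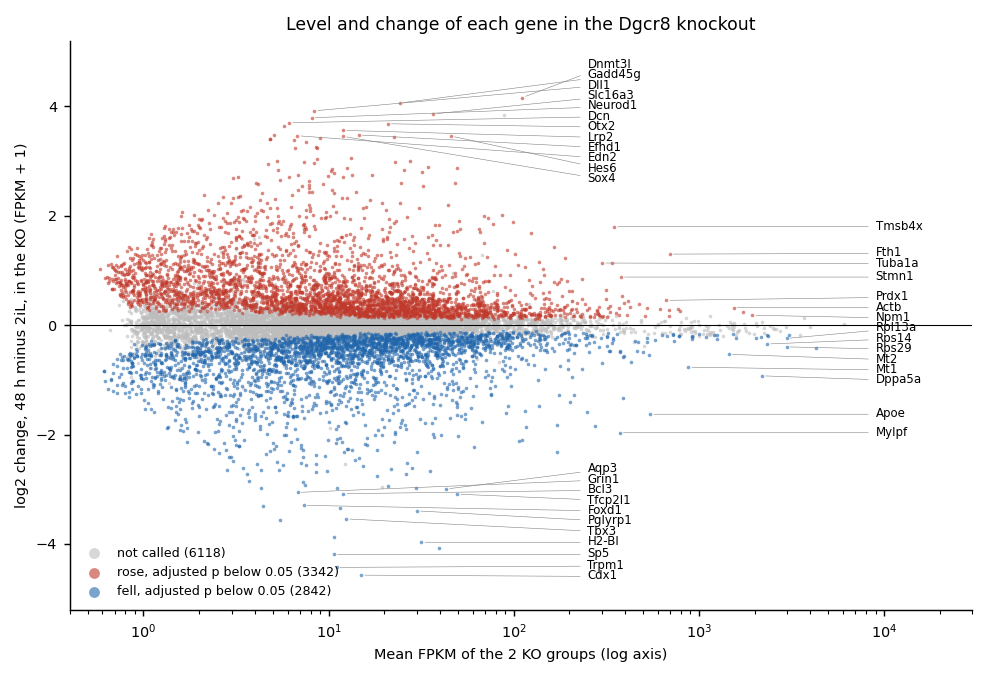
Mean FPKM of each gene over both knockout groups (x axis, log scale) against its log2 change from 2iL to 48 h (y axis, FPKM + 1), with 3342 called rises in red, 2842 called falls in blue and the 6118 other genes in grey. Genes among the 12 largest rises, the 12 largest falls and the 8 largest changes in FPKM each way are named; large changes are seen among genes of low and middle level, while the most abundant genes lie near 0.

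The 12 largest rises spanned 3.45 to 4.16 log2 units and the 12 largest falls 3.0 to 4.57, and 4 of the former and 5 of the latter had passed through only 1 knockout group. Among the rises were secreted and membrane proteins: Lrp2, the endocytic receptor megalin, rose from 1.04 and 1.02 FPKM to 22.3 and 23.5 FPKM (log2 change 3.56 ± 0.07 SE, limma adjusted p = 3.2e-07). Edn2, the peptide endothelin 2, went from 0.281 and 0.294 FPKM to 14.8 and 11.8 FPKM (log2 change 3.46 ± 0.12 SE). Sox4, a SOX-family transcription factor of progenitor cells, rose from 1.17 and 1.17 FPKM to 22.9 and 22.6 FPKM (log2 change 3.45 ± 0.06 SE, limma adjusted p = 1.7e-07). Efhd1, a calcium-binding protein of mitochondria, rose from 1.24 and 1.93 FPKM to 28.3 and 26.7 FPKM (log2 change 3.48 ± 0.14 SE, limma adjusted p = 2.8e-06). In each of these 4 genes the 2 libraries of a group lay close together, far from those of the other group. Dcn, the matrix proteoglycan decorin, was at 0.0372 and 0 FPKM in 2iL and 11.9 and 12.6 FPKM at 48 h (log2 change 3.7 ± 0.10 SE). Decorin is also a fibroblast marker: 3 of the 13 fibroblast and feeder markers (Dcn, Thy1 and Twist1) reached 1 FPKM in 2 libraries, and their summed level was 3.02 and 3.22 FPKM in 2iL and 21.6 and 22.3 FPKM at 48 h. The collagen genes Col1a1, Col1a2 and Col3a1, which define fibroblasts, were at or below 0.127 FPKM in every knockout library. Col1a1 went from 0.0313 and 0.0375 FPKM to 0.127 and 0.118 FPKM. Tagln went from 0.171 and 0.345 FPKM to 0.902 and 0.928 FPKM and S100a4 from 0 and 0 FPKM to 0.152 and 0.326 FPKM. Pdgfrb went the other way, from 0.563 and 0.433 FPKM to 0.271 and 0.194 FPKM. Lum and Postn were at most 0.0633 FPKM, and Acta2 and Prrx1 were listed at 0 in all 4. Their part in the Dcn result was not tested.

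Several of the largest falls were genes of membrane proteins. Aqp3, a water and glycerol channel, fell from 72.8 and 81.8 FPKM to 7.76 and 9.97 FPKM (log2 change -3.0 ± 0.12 SE, limma adjusted p = 2.9e-06). Grin1, the obligatory subunit of NMDA receptors, went from 12.96 and 12.96 FPKM to 0.543 and 0.823 FPKM (log2 change -3.06 ± 0.11 SE). Its 48 h libraries lay far below both 2iL libraries. Transcription factors were among the falls as well: Foxd1, a forkhead factor, went from 13.8 and 14.5 FPKM to 0.535 and 0.551 FPKM (log2 change -3.29 ± 0.09 SE), and Bcl3, an atypical IκB protein that is induced by LIF and STAT3, fell from 21.8 and 22.8 FPKM to 1.74 and 1.77 FPKM. Pglyrp1, a secreted peptidoglycan recognition protein, fell from 54.6 and 56.7 FPKM to 4.17 and 4.61 FPKM (log2 change -3.4 ± 0.07 SE, limma adjusted p = 2.7e-07). Of the 24 genes with the largest changes, 19 were called in the same direction in wild type, 3 in the opposite direction and 2 were not called.

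**Figure D2:**
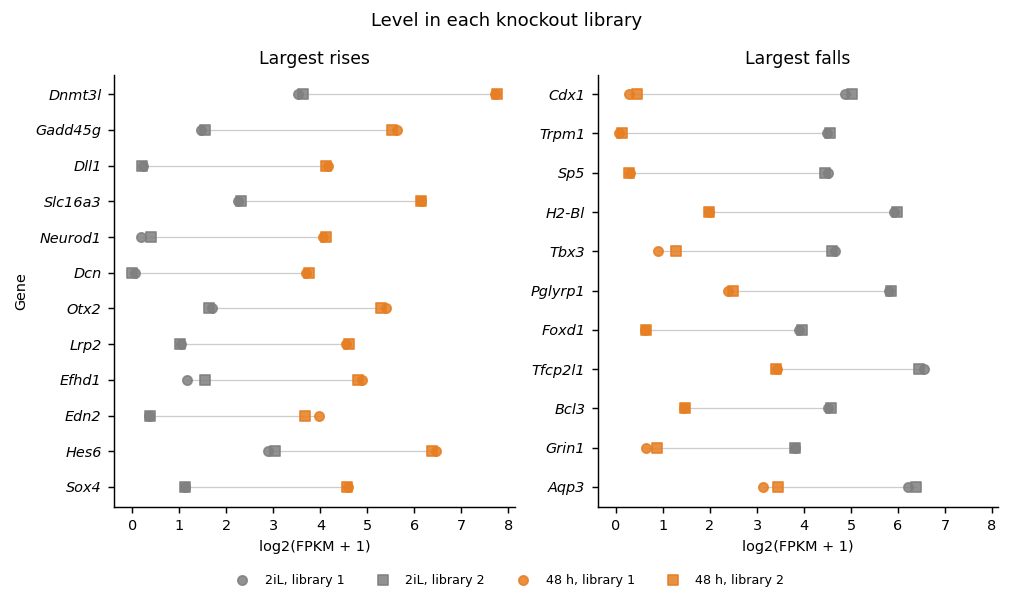
Level of the 12 largest rises (left) and of 11 of the 12 largest falls (right) in each of the 4 knockout libraries, on a log2(FPKM + 1) axis; grey symbols are 2iL, orange symbols 48 h, circles library 1 and squares library 2. In every gene plotted the 2iL and the 48 h libraries stand apart, with Dnmt3l reaching the highest level at 48 h and Cdx1 showing the widest gap.

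Notch signalling passes between neighbouring cells: ligands of the Delta and Jagged families on 1 cell trigger the cleavage of Notch receptors on another, and the freed receptor joins RBPJ to switch on HES and HEY repressors. Proneural factors raise Delta ligands and are held down by HES1, so the pathway sorts cells during neurogenesis. Of 20 measured Notch genes 3 passed only through the 48 h libraries and 2 only through 2iL, and of the 15 others 10 rose and 3 fell, with a median log2 change of 0.50 (0.03 over all entries tested). The ligand Dll1 was at 0.175 and 0.149 FPKM in 2iL and 16.9 and 16.2 FPKM at 48 h (log2 change 3.92 ± 0.13 SE), and Jag1, another ligand, fell from 9.27 and 8.09 FPKM to 2.83 and 3.03 FPKM (log2 change -1.3 ± 0.10 SE, limma adjusted p = 5.7e-05). Among the receptors Notch4, which is also expressed in endothelium, fell from 10.8 and 10.6 FPKM to 2.53 and 2.9 FPKM. The ligands thus moved in opposite directions. Mfng, a glycosyltransferase that modifies Notch receptors, rose from 1.59 and 1.73 FPKM to 10.99 and 10.7 FPKM (log2 change 2.15 ± 0.09 SE, limma adjusted p = 2.9e-06). The canonical target Hes1 fell from 18.97 and 22.01 FPKM to 8.68 and 7.67 FPKM (log2 change -1.23 ± 0.17 SE, limma adjusted p = 0.00088), while Hes6, which encodes an inhibitor of HES1, rose from 6.42 and 7.23 FPKM to 87.3 and 82.4 FPKM (log2 change 3.46 ± 0.13 SE, limma adjusted p = 1.9e-06). Ligand and targets thus did not move in 1 direction.

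Of 25 proneural and early neurogenic genes 10 were measured, and 5 of these passed only through the 48 h libraries and 1 only through 2iL, so a count of rises says little. Of the 4 others 2 rose and 1 fell. Neurod1, a bHLH factor of neurons and endocrine cells, was at 0.141 and 0.317 FPKM in 2iL and 15.6 and 16.4 FPKM at 48 h (log2 change 3.79 ± 0.13 SE). Insm1, a zinc-finger factor of neuroendocrine progenitors, was at 0.247 and 0.369 FPKM in 2iL and 9.35 and 8.83 FPKM at 48 h (log2 change 2.95 ± 0.09 SE), and like Neurod1 it passed only through 48 h. Btg2, an antiproliferative gene transcribed in neural progenitors about to produce neurons, was at 18.1 and 19.3 FPKM in 2iL and 56.5 and 57.8 FPKM at 48 h (log2 change 1.56 ± 0.05 SE, limma adjusted p = 1.3e-06). All 3 were several-fold above their 2iL level in both 48 h libraries. Ebf1, a factor of B cells and neurons, went from 1.89 and 1.8 FPKM to 0.231 and 0.297 FPKM (log2 change -1.17 ± 0.20 SE). Cbfa2t2, a transcriptional corepressor, fell by less (log2 change -0.42), and its call was lost when any 1 knockout library was left out (limma adjusted p = 0.056 to 0.097). Of 7 neural markers 3 (Pax6, Olig2 and Sox1) reached 1 FPKM in 2 libraries, Neurog2 and Dcx stayed at or below 0.195 FPKM, and the 7 summed to 11.0 and 11.0 FPKM in 2iL and 15.96 and 17.4 FPKM at 48 h.

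Proneural bHLH factors bind E-boxes of the form CAGCTG, a motif read the same on both strands. RefSeq promoter windows (GRCm38.p6, 250 bases before to 50 after an annotated start) were matched for 9684 of 13165 gene symbols. CAGCTG was present in 20.5% of the 696 windows of genes that rose at least 2-fold, in 15.6% of the 494 windows of genes that fell at least 2-fold and in 15.1% of all 12401 windows. Other motifs were searched in the same windows and are given in the same order. The RBPJ core TGGGAA was in 23.9%, 23.9% and 23%, and the E-box CACGTG in 6.03%, 10.5% and 10.1%. The SP and KLF box GGGCGG was in 60.6%, 58.9% and 63.3%. These shares are descriptions without a test. Of the 12 genes with the largest rises, only Hes6, Dll1, Dnmt3l, Gadd45g and Neurod1 had their windows read singly. Hes6, Dll1, Dnmt3l and Gadd45g hold a CAGCTG match in at least 1 window. The windows of Hes6 and Dll1, the 2 of the Notch list, are shown with it in capitals. The Hes6 window shown is at chr1:91413173-91413472, minus strand with the match 150 bases before the start, and a second annotated start has 1 match as well. The Dll1 window is at chr17:15376883-15377182, minus strand with the match 132 bases before the start, and a window at another start has none. Neurod1 has none in its window.

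Hes6: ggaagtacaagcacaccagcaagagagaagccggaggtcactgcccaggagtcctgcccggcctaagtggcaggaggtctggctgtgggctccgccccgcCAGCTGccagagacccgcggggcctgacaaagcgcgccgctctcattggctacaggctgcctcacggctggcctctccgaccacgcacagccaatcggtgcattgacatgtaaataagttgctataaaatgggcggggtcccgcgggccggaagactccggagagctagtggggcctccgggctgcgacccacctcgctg

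Dll1: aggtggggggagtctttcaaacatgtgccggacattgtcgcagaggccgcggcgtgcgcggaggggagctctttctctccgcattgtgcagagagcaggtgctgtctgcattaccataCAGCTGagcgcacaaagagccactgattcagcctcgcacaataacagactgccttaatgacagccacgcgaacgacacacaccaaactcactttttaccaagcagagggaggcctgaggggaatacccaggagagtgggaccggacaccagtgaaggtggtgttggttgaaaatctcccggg

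The neuronal cytoskeleton and axon genes split. Of 19 measured, 12 rose and 6 fell, with a median log2 change of 0.74 in the knockout and 0.01 in wild type, and 2 of the 19 passed only through the 48 h libraries. Crmp1, a semaphorin-response protein that binds tubulin, rose from 10.96 and 11.2 FPKM to 88.1 and 87.8 FPKM (log2 change 2.88 ± 0.06 SE, limma adjusted p = 3.3e-07). Map2, a dendritic microtubule protein, rose from 2.08 and 1.54 FPKM to 7.78 and 7.27 FPKM (log2 change 1.61 ± 0.12 SE, limma adjusted p = 4.1e-05). Stmn1, which destabilises microtubules, rose from 259.6 and 274 FPKM to 499.7 and 483 FPKM (log2 change 0.88 ± 0.04 SE, limma adjusted p = 5.2e-06). Both 48 h libraries exceeded both 2iL libraries for each. Neurofilament genes went the other way: Nefm fell from 11.4 and 11.7 FPKM to 1.96 and 2.02 FPKM and Nefl from 68.1 and 71.96 FPKM to 30.4 and 30.6 FPKM (log2 change -1.17 ± 0.05 SE, limma adjusted p = 3.2e-06). Ncam1, a neural cell adhesion molecule, fell from 15.8 and 14.8 FPKM to 6.53 and 7.83 FPKM. In 10 of the 19 genes the knockout change was higher than the wild-type change and in 3 it was lower (limma interaction, adjusted p below 0.05). Over all entries tested the interaction was called in 42.8%, as higher in the knockout in 21.1% and as lower in 21.7%.

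Hedgehog ligands bind the receptor PTCH1, which frees the transducer SMO and lets GLI factors act; Gli1 and Ptch1 are also direct targets. Of 9 measured genes 1, Smo, passed only through the 48 h libraries, and of the 8 others 5 rose and 1 fell. Gli1 rose from 1.81 and 1.86 FPKM to 9.09 and 8.21 FPKM (log2 change 1.77 ± 0.08 SE, limma adjusted p = 3.4e-06). The transducer Smo went from 0.784 and 0.674 FPKM to 3.92 and 3.81 FPKM, whereas Gli2, another GLI factor, fell from 10.1 and 10.5 FPKM to 5.96 and 6.16 FPKM (log2 change -0.68 ± 0.07 SE, limma adjusted p = 0.0003). Gli1 and the transducer were therefore higher at 48 h in both libraries, and of Gli1, Smo and Gli2 only Gli1 changed the other way in wild type (log2 change -0.48; difference 2.24 ± 0.11 SE, limma adjusted p = 1.1e-05).

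Retinoic acid genes include nuclear receptors, binding proteins and targets, and of 12 measured 6 rose and 3 fell, 2 of the 12 having passed only through 2iL. Crabp2, which carries retinoic acid to its receptor, was at 5.35 and 5.71 FPKM in 2iL and 45.8 and 45.5 FPKM at 48 h (log2 change 2.84 ± 0.07 SE, limma adjusted p = 4.4e-07), and the receptor gene Rarg rose from 35.6 and 35.02 FPKM to 103 and 101 FPKM (log2 change 1.51 ± 0.06 SE, limma adjusted p = 2.6e-06). All 4 Hox genes that were measured, of 39 in the table, passed only through the 2iL libraries, so their lower level at 48 h is a description. Among these patterning factors Hoxd4 was at 2.11 and 2.51 FPKM in 2iL and 0.37 and 0.665 FPKM at 48 h (log2 change -1.13 ± 0.13 SE) and Hoxb13 at 1.1 and 1.83 FPKM in 2iL and 0.169 and 0.0955 FPKM at 48 h (log2 change -1.11 ± 0.15 SE). The 2iL libraries were above the 48 h libraries in both.

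WNT signalling stabilises beta-catenin, which acts through TCF and LEF factors, and the GSK3 inhibitor of 2iL mimics that signal. Of 10 measured WNT target genes 3 passed only through 2iL, and of the 7 others 4 fell and 1 rose, with a median log2 change of -0.34. Axin2, a feedback inhibitor of the pathway, fell from 20.8 and 19.9 FPKM to 1.95 and 1.5 FPKM (log2 change -2.98 ± 0.12 SE, limma adjusted p = 3.1e-06). Notum, a secreted enzyme that inactivates WNT ligands, stayed abundant at 221 and 236 FPKM in 2iL and 177 and 159 FPKM at 48 h. Its fall (log2 change -0.44) was not called without KO 2iL library 2 or KO 48 h library 2 (limma adjusted p = 0.071 and 0.085), and in wild type its change was -4.77. Fzd7, a WNT receptor, rose from 16.9 and 16.8 FPKM to 23.6 and 22.1 FPKM (log2 change 0.42 ± 0.05 SE, limma adjusted p = 0.00059). Among 22 ligands, receptors and TCF factors 5 passed through only 1 knockout group, and of the 17 others 5 rose and 6 fell. The ligand Wnt5a was at 0.152 and 0.0776 FPKM in 2iL and 2.54 and 2.39 FPKM at 48 h, Wnt5b went from 7.85 and 8.39 FPKM to 0.539 and 0.388 FPKM (log2 change -2.64 ± 0.09 SE) and the receptor Fzd10 fell from 21.6 and 21.2 FPKM to 3.9 and 3.44 FPKM.

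The TCF and LEF core CTTTGA, searched on both strands, was found in 17% of the promoter windows of genes that fell at least 2-fold, in 10.3% of those that rose at least 2-fold and in 11.5% of all windows. Sp5, a SP-family factor and WNT target, went from 21.7 and 20.7 FPKM to 0.229 and 0.201 FPKM and its window, at chr2:70474673-70474972, plus strand, holds 2 matches, 204 and 104 bases before the start, shown in capitals. The window of Axin2 holds none.

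Sp5: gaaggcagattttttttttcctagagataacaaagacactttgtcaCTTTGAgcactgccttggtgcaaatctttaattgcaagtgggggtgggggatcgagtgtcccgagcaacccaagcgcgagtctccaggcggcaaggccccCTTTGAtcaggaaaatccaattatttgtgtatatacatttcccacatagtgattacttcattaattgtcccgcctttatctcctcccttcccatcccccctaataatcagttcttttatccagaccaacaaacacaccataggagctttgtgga

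**Figure D3:**
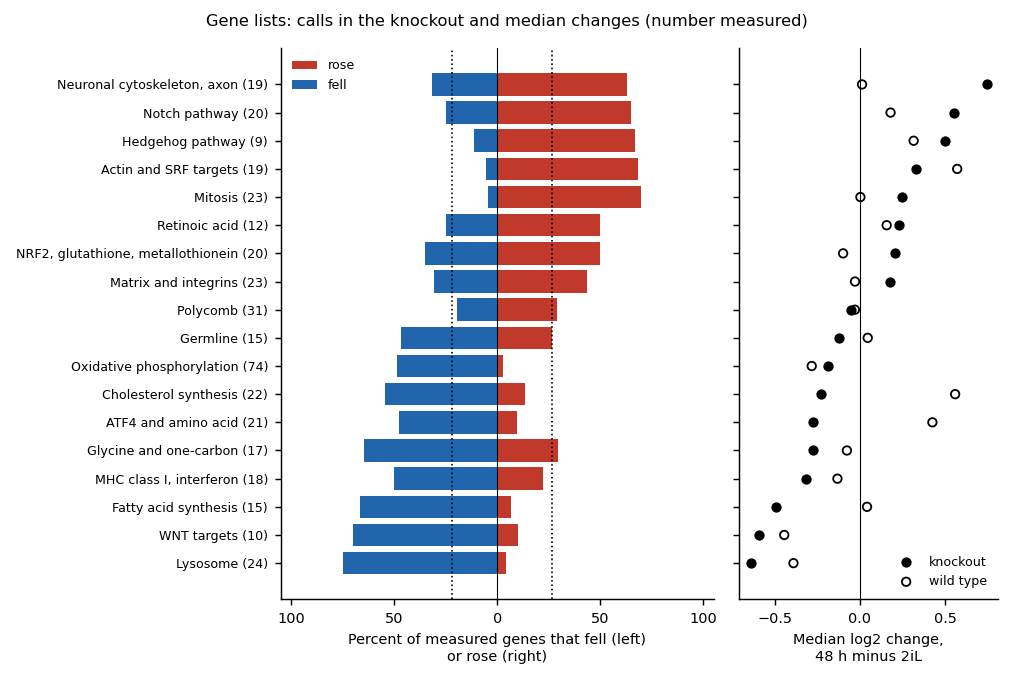
Left, percent of the measured genes of 18 lists that fell (blue, to the left) or rose (red, to the right) in the knockout, with dotted lines at the shares over all entries tested, 21.8% and 26.5%. Right, the median log2 change of each list in the knockout (filled) and in wild type (open), with the lists in order of their knockout median and the number measured in brackets. The counts and medians shown include genes that passed through only 1 knockout group, 5 of the 20 Notch genes and 3 of the 10 WNT targets among them.

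Genes of epithelial junctions and mesenchymal regulators moved in both directions, where 26.5% of all entries tested rose and 21.8% fell. Of 20 measured 5 passed only through the 48 h libraries, and of the 15 others 6 rose and 5 fell. Esrp1, a splicing factor of epithelia, rose from 1.96 and 2.01 FPKM to 19.9 and 19.09 FPKM (log2 change 2.78 ± 0.08 SE, limma adjusted p = 8.4e-07), Grhl2, an epithelial transcription factor, rose from 1.04 and 0.926 FPKM to 7.39 and 7.07 FPKM and the adhesion molecule Epcam from 19.8 and 23.5 FPKM to 72.97 and 71.6 FPKM (log2 change 1.7 ± 0.08 SE, limma adjusted p = 4.3e-06). Cldn3, a tight junction claudin, fell from 7.33 and 7.44 FPKM to 1.94 and 2.01 FPKM (log2 change -1.49 ± 0.09 SE, limma adjusted p = 1.2e-05). The intermediate filament gene Vim fell only slightly in the knockout, from 606 and 662 FPKM to 522 and 531 FPKM (log2 change -0.27 ± 0.05 SE, limma adjusted p = 0.0048), and by 3.26 log2 units in wild type. Krt18, a keratin of simple epithelia and trophectoderm, rose from 0.639 and 1.1 FPKM to 16.2 and 16.7 FPKM (log2 change 3.24 ± 0.14 SE, limma adjusted p = 3.6e-06). A list of 13 trophectoderm markers had 7 measured, of which 5 rose and 1 fell, and 3 of these 7 passed only through the 48 h libraries. Among the 7 defining trophectoderm markers, which leave Krt18 out, Gata3 was at 0.0791 and 0.124 FPKM in 2iL and 1.62 and 1.56 FPKM at 48 h and Esx1 at 0.636 and 0.761 FPKM in 2iL and 2.02 and 1.61 FPKM at 48 h, Cdx2 was at most 0.634 FPKM, Elf5 at most 0.0264 FPKM and Tpbpa at 0. The sum of these 7 went from 2.03 and 2.71 FPKM to 4.06 and 3.51 FPKM, whose part in the Krt18 result was not tested.

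Matrix genes moved in both directions: 10 of 23 rose and 7 fell, and 7 rose and 7 fell where a mean of 5 FPKM was required. Among all entries tested 26.5% rose and 21.8% fell. Of the 23, 1 passed only through 2iL, and of the 22 others 10 rose and 6 fell. The basement membrane collagens Col4a1 and Col4a2 rose from 1.19 and 0.946 FPKM to 8.91 and 9.53 FPKM and from 0.9 and 1.19 FPKM to 4.44 and 5.3 FPKM (log2 change 1.52 ± 0.11 SE, limma adjusted p = 4.7e-05 for the latter). Sparc, a collagen-binding glycoprotein, rose from 101 and 101 FPKM to 193 and 191 FPKM (log2 change 0.92 ± 0.04 SE, limma adjusted p = 3.1e-06), and the integrin Itga3 rose from 3.83 and 3.58 FPKM to 23.9 and 25.2 FPKM (log2 change 2.44 ± 0.06 SE, limma adjusted p = 5.1e-07). Timp1, an inhibitor of matrix proteases, fell from 38.3 and 42.7 FPKM to 21.2 and 18.9 FPKM. Type IV collagen and Sparc are also abundant in primitive endoderm, and of 18 primitive endoderm genes 5 were measured, of which 4 rose and 1 fell. The gene that fell had passed only through 2iL. Among the 10 defining markers Gata4 was the highest, at 0.695 to 0.972 FPKM, Gata6, Sox17 and Sox7 were at most 0.0732 FPKM, and the 10 summed to 1.88 and 2.69 FPKM in 2iL and 1.91 and 1.76 FPKM at 48 h. Their part in the result was not tested. Actin cytoskeleton and SRF target genes rose in 13 of 19 and fell in 1, Tpm4 (log2 change -0.45 ± 0.04 SE, limma adjusted p = 0.00017). Anxa2, an annexin of the membrane skeleton, rose from 26.9 and 31.4 FPKM to 117 and 114 FPKM (log2 change 1.95 ± 0.08 SE, limma adjusted p = 2.8e-06). S100a6, a calcium-binding partner of annexins, was at 1.67 and 4.1 FPKM in 2iL and 25.7 and 21.96 FPKM at 48 h (log2 change 2.75 ± 0.31 SE, limma adjusted p = 0.00034), with the 2iL libraries apart from each other but both far below 48 h. Tmsb4x, which sequesters actin monomers, rose from 147 and 164 FPKM to 552 and 534 FPKM (log2 change 1.8 ± 0.06 SE, limma adjusted p = 1.2e-06). In wild type Tmsb4x and Anxa2 fell, by 0.95 and 0.86 log2 units.

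Most lysosomal genes fell. Lysosomes degrade proteins, lipids and sugars with acid hydrolases, and the MiT/TFE factors Mitf, Tfeb and Tfe3 activate their genes. Of 24 measured genes 2, Mitf and Ctsc, passed only through 2iL, and of the 22 others 16 fell and 1 rose, with a median log2 change of -0.52. Mitf itself went from 10.1 and 9.3 FPKM to 0.904 and 0.854 FPKM (log2 change -2.51 ± 0.09 SE), and Tfe3 was the gene that rose, from 48.6 and 48.5 FPKM to 64.2 and 62.1 FPKM (log2 change 0.37 ± 0.05 SE, limma adjusted p = 0.0012). Hexa, the alpha subunit of beta-hexosaminidase, fell from 27.98 and 34.1 FPKM to 5.59 and 5.57 FPKM (log2 change -2.28 ± 0.10 SE, limma adjusted p = 3.8e-06). Ctsc, cathepsin C, was at 4.51 and 4.75 FPKM in 2iL and 0.246 and 0.105 FPKM at 48 h (log2 change -2.26 ± 0.10 SE). In Hexa and Ctsc no 48 h library came near the 2iL libraries. The membrane protein Lamp1, the most abundant of the list, fell from 141 and 159 FPKM to 122 and 122 FPKM (log2 change -0.29 ± 0.06 SE, limma adjusted p = 0.0051). The wild-type median over the 24 genes was -0.39, and the interaction was called as higher in the knockout for 4 genes and lower for 6.

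Most fatty acid synthesis genes fell in the knockout. Fatty acid synthesis turns citrate into saturated fatty acids that stearoyl-CoA desaturases then modify. Of 15 measured genes 10 fell and 1 rose, the median was -0.50 against 0.04 in wild type, and in 13 the knockout change was called lower than the wild-type change (11 to 14 when 1 library was left out). Scd1, a desaturase, fell from 57.4 and 58.4 FPKM to 16.99 and 17.3 FPKM (log2 change -1.7 ± 0.04 SE, limma adjusted p = 4.4e-07), and Scd2, another desaturase, from 199 and 205 FPKM to 73.4 and 71.2 FPKM (log2 change -1.47 ± 0.04 SE, limma adjusted p = 8.5e-07). Acsl3, an acyl-CoA synthetase, fell from 23.96 and 23.7 FPKM to 8.81 and 11.1 FPKM (log2 change -1.19 ± 0.09 SE, limma adjusted p = 5e-05), whereas its relative Acsl4 rose from 7.38 and 6.75 FPKM to 14.4 and 14.4 FPKM (log2 change 0.94 ± 0.07 SE, limma adjusted p = 4e-05). No library of 1 condition overlapped the other for these 4 genes.

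Cholesterol genes changed by smaller amounts. Of 22 measured, 12 fell and 3 rose, and without KO 48 h library 2 the falls numbered 7. The median was -0.23 in the knockout and 0.56 in wild type, with 15 interactions lower in the knockout and 1 higher. Ebp, a sterol isomerase, fell from 65.1 and 82.7 FPKM to 27.9 and 30.2 FPKM (log2 change -1.31 ± 0.10 SE, limma adjusted p = 6.1e-05), and Insig1, which retains the sterol sensor in the endoplasmic reticulum, fell from 49.9 and 53.6 FPKM to 35.7 and 35.02 FPKM (log2 change -0.53 ± 0.05 SE, limma adjusted p = 9.3e-05). Fdps, the most abundant gene of the list, was not called at 122 and 141 FPKM in 2iL and 128 and 129.6 FPKM at 48 h. The 95% interval of its change, -0.19 to 0.14 on the log2 scale, spanned a rise and a fall.

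Amino acid response genes, which the factor ATF4 activates when amino acids are short, parted from wild type in nearly the whole list. Of 21 measured, 10 fell and 2 rose, of which 1 fall and 1 rise passed through only 1 knockout group, the median was -0.27 against 0.43 in wild type, and the interaction was lower in the knockout in 18 and higher in 1. Asns, asparagine synthetase, fell from 168 and 178 FPKM to 38.3 and 40.3 FPKM (log2 change -2.11 ± 0.06 SE, limma adjusted p = 7.6e-07). Slc7a1, a transporter of basic amino acids, fell from 16.5 and 18.2 FPKM to 6.58 and 8.08 FPKM (log2 change -1.14 ± 0.09 SE, limma adjusted p = 6.8e-05), while Slc7a3, of the same family, rose from 57.2 and 59.4 FPKM to 111 and 111 FPKM (log2 change 0.92 ± 0.04 SE, limma adjusted p = 3e-06). The Atf4 transcript was at 114 and 128 FPKM in 2iL and 127 and 124 FPKM at 48 h and not called. In threonine, glycine and one-carbon metabolism 11 of 17 genes fell and 5 rose. Tdh, the threonine dehydrogenase on which mouse embryonic stem cells depend, fell from 279 and 308 FPKM to 109 and 112 FPKM (log2 change -1.4 ± 0.06 SE, limma adjusted p = 4.3e-06), and Gldc, the glycine decarboxylase, rose from 9.69 and 10.04 FPKM to 31.2 and 31.7 FPKM (log2 change 1.58 ± 0.05 SE, limma adjusted p = 1e-06).

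**Figure D4:**
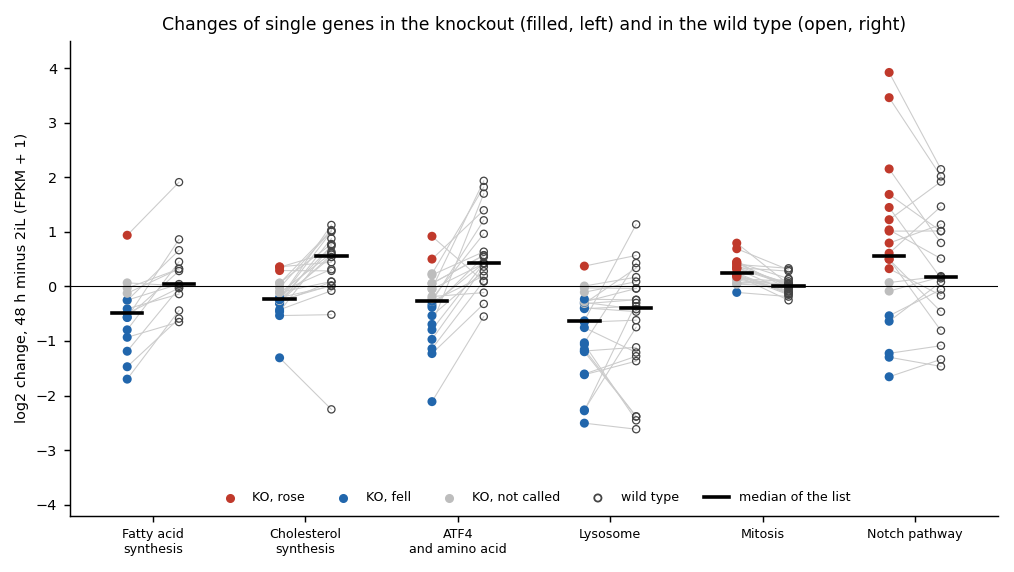
Log2 change from 2iL to 48 h (y axis, FPKM + 1) of each gene of 6 lists, in the knockout (filled, left, red for a called rise, blue for a called fall, grey for neither) and in wild type (open, right), joined by a line per gene; black bars are list medians. For fatty acid, cholesterol and ATF4 genes the knockout median lies below 0 and the wild-type median above it, at -0.50 and 0.04, -0.23 and 0.56, and -0.27 and 0.43.

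Antioxidant genes moved in both directions, where 26.5% of all entries tested rose and 21.8% fell. Of 20 genes of NRF2, glutathione and metallothioneins 1 passed only through the 48 h libraries, and of the 19 others 9 rose and 7 fell. Hmox1, haem oxygenase, rose from 15.02 and 15.5 FPKM to 73.2 and 73.8 FPKM (log2 change 2.2 ± 0.05 SE, limma adjusted p = 3.2e-07). Nqo1, a quinone reductase, rose from 29.9 and 28.4 FPKM to 102 and 99.8 FPKM (log2 change 1.76 ± 0.04 SE, limma adjusted p = 4.7e-07), and Srxn1, sulfiredoxin, rose from 9.87 and 10.9 FPKM to 23.7 and 25.8 FPKM (log2 change 1.18 ± 0.08 SE, limma adjusted p = 2.8e-05). All 3 are induced by NRF2. The glutathione transferases Gstm1 and Gstm2 fell from 145 and 150.2 FPKM to 91.3 and 88.7 FPKM and from 76.1 and 82.9 FPKM to 43.3 and 43.4 FPKM. Metallothionein Mt1 fell from 1029.9 and 1179 FPKM to 628 and 666 FPKM (log2 change -0.77 ± 0.07 SE, limma adjusted p = 0.0001). Of 74 oxidative phosphorylation subunits 36 fell and 2 rose, none by 2-fold, and the median was -0.19. Without KO 48 h library 2 the falls numbered 19, and without KO 2iL library 2 the rises numbered 6. Cox5a, a subunit of complex IV, fell from 353 and 391 FPKM to 232 and 226 FPKM (log2 change -0.70 ± 0.05 SE, limma adjusted p = 5.5e-05).

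Mitosis genes rose by small amounts. Of 23 measured 16 rose and 1 fell, none by 2-fold, with a median of 0.25 in the knockout and 0.00 in wild type, and 13 interactions were higher in the knockout and none lower. Cdc20, the activator of the anaphase-promoting complex, rose from 125 and 130.4 FPKM to 219.8 and 224 FPKM (log2 change 0.79 ± 0.04 SE, limma adjusted p = 5.5e-06). Cdc25b, a phosphatase that activates CDK1, rose from 13.05 and 13.6 FPKM to 22.6 and 21.6 FPKM (log2 change 0.69 ± 0.06 SE, limma adjusted p = 0.00012). Kif23, a kinesin of the midzone, rose from 32.3 and 36.6 FPKM to 47.9 and 46.97 FPKM (log2 change 0.45 ± 0.06 SE, limma adjusted p = 0.00094). Top2a was the 1 fall (log2 change -0.11), a call lost without KO 2iL library 2, either KO 48 h library or any 1 wild-type library (limma adjusted p = 0.071 to 0.18). DNA replication genes showed 10 rises and 3 falls among 36, near the 26.5% of all entries tested that rose and below the 21.8% that fell. Their median log2 change was 0.006. The rises were fewer without KO 48 h library 1 or 2, and the falls were more without KO 2iL library 1.

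Cell cycle brakes and death genes were mixed, as were all entries tested, with 26.5% called as rises and 21.8% as falls. Of 29 cyclins, kinases, brakes and E2F factors of the G1/S step 9 rose and 9 fell, with 8 and 10 under median-ratio scaling. Cdkn1c, the inhibitor p57, rose from 2.83 and 2.82 FPKM to 9.7 and 9.67 FPKM (log2 change 1.48 ± 0.10 SE, limma adjusted p = 3.2e-05), and Cdkn2b, the inhibitor p15, rose from 3.51 and 2.93 FPKM to 10.5 and 10.4 FPKM (log2 change 1.45 ± 0.11 SE, limma adjusted p = 4.5e-05). Cdkn1a, the inhibitor p21, fell from 246 and 253 FPKM to 144 and 141 FPKM (log2 change -0.80 ± 0.04 SE, limma adjusted p = 1e-05), and Rbl1, the pocket protein p107, fell from 14.4 and 13.3 FPKM to 8.66 and 8.92 FPKM. The cyclin Ccnd3 fell from 115 and 112 FPKM to 64.7 and 61.8 FPKM. In the BCL2 family and its partners 8 of 23 rose and 7 fell, and both numbered 7 under median-ratio scaling. With only the 4 knockout libraries, without KO 2iL library 1 or without KO 48 h library 1, 6 rose and 7 fell. Bcl2l11, the pro-apoptotic protein BIM, rose from 8.72 and 8.04 FPKM to 19.7 and 18.2 FPKM (log2 change 1.09 ± 0.10 SE, limma adjusted p = 0.00011), and Bmf, another BH3-only protein, rose from 1.1 and 1.23 FPKM to 4.63 and 6.53 FPKM. The effector Bak1 fell from 70.7 and 64.4 FPKM to 25.1 and 25.6 FPKM (log2 change -1.38 ± 0.06 SE, limma adjusted p = 3.1e-06), and Bid fell from 14.2 and 15.8 FPKM to 6.35 and 6.29 FPKM. Pro-apoptotic members are thus found on both sides.

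Polycomb genes had a median change near 0, at -0.05. The shares called over all entries tested were 26.5% as rises and 21.8% as falls. Of 31 Polycomb genes 9 rose and 6 fell, with 8 and 10 under median-ratio scaling and 9 and 9 under quantile scaling. Of the 31, 1, Phf19, passed only through the 48 h libraries, and of the 30 others 8 rose and 6 fell. Phf19, a Polycomb-like subunit that brings PRC2 to CpG islands, was at 0.939 and 0.82 FPKM in 2iL and 13.5 and 14.2 FPKM at 48 h (log2 change 2.98 ± 0.10 SE), and Phc1, a Polyhomeotic subunit of PRC1, rose from 88.9 and 88.1 FPKM to 239 and 239.6 FPKM (log2 change 1.43 ± 0.03 SE, limma adjusted p = 4.4e-07). Pcgf2, also of PRC1, fell from 31.7 and 32.6 FPKM to 20.3 and 21.3 FPKM (log2 change -0.60 ± 0.05 SE, limma adjusted p = 7.2e-05). Germline genes fell in 7 of 15 and rose in 4. Kit, the receptor of stem cell factor, fell from 38.5 and 37.5 FPKM to 4.81 and 5.81 FPKM (log2 change -2.63 ± 0.10 SE, limma adjusted p = 2.6e-06), and Nanos3, an RNA-binding protein of primordial germ cells, fell from 11.4 and 13.2 FPKM to 1.86 and 1.75 FPKM (log2 change -2.25 ± 0.12 SE, limma adjusted p = 1e-05). Both germ cell genes were low in both 48 h libraries. Rhox5, an X-linked homeobox gene that DNA methylation can silence, rose from 5.4 and 5.23 FPKM to 48.2 and 51.3 FPKM (log2 change 3.01 ± 0.05 SE, limma adjusted p = 1.7e-07).

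Of 22 imprinted genes, expressed from 1 parental copy, 14 rose and 5 fell, and 2 of the 22 passed only through the 48 h libraries. Nnat, a membrane proteolipid, was at 1.76 and 2.34 FPKM in 2iL and 25.8 and 22.9 FPKM at 48 h (log2 change 3.06 ± 0.15 SE, limma adjusted p = 6.7e-06) and Plagl1, a zinc-finger factor, fell from 52.02 and 54.4 FPKM to 5.34 and 6.41 FPKM (log2 change -2.98 ± 0.12 SE, limma adjusted p = 3.1e-06). MHC class I and interferon-response genes fell in 9 of 18 and rose in 4, or 2 without KO 2iL library 1 or KO 48 h library 2. Of the 18, 1 passed only through 2iL, and of the 17 others 8 fell and 4 rose. Irf9, a part of the interferon-activated factor, fell from 18.01 and 21.2 FPKM to 4.83 and 5.29 FPKM (log2 change -1.76 ± 0.10 SE, limma adjusted p = 1.2e-05), and Tapbp, which loads peptides on class I molecules, fell from 39.1 and 43.03 FPKM to 15.9 and 14.7 FPKM. The peptide transporter Tap1 rose from 1.68 and 1.13 FPKM to 5.21 and 6.03 FPKM (log2 change 1.47 ± 0.15 SE, limma adjusted p = 0.0002). The 48 h libraries of Irf9 and Tapbp lay below both 2iL libraries, and those of Tap1 above them. Lin28a, the RNA-binding protein that blocks let-7 processing, rose from 1.05 and 1.15 FPKM to 17.02 and 15.6 FPKM (log2 change 3.04 ± 0.07 SE, limma adjusted p = 3.3e-07). In wild type Lin28a went from a mean of 104.8 to 234.5 FPKM, far above the knockout in both media.

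Inhibitors of NODAL signalling were among the falls of the TGF-beta superfamily. Smad7, an inhibitory SMAD, fell from 16.03 and 14.1 FPKM to 2.47 and 1.79 FPKM (log2 change -2.37 ± 0.13 SE, limma adjusted p = 1.1e-05), and Lefty1, a secreted NODAL antagonist, fell from 80.1 and 81 FPKM to 22.8 and 15.96 FPKM (log2 change -2.02 ± 0.18 SE, limma adjusted p = 0.0001). The receptor Acvr1b fell from 14.5 and 15.5 FPKM to 4.62 and 4.08 FPKM (log2 change -1.58 ± 0.08 SE, limma adjusted p = 6.3e-06). In all 3 genes the 48 h libraries lay below the 2iL libraries. NODAL genes in all showed 8 rises and 10 falls among 21. The 3 named are all falls, and of the rises 0 reached 2-fold, against 7 of the falls. Of the 21, 1 passed only through the 48 h libraries and 1 only through 2iL, and of the 19 others 7 rose and 9 fell. Of the BMP targets, Id2 rose from 7.43 and 8.75 FPKM to 17.5 and 17.6 FPKM (log2 change 1.03 ± 0.11 SE, limma adjusted p = 0.00021) and Id3 fell from 26.1 and 26.97 FPKM to 15.01 and 13.7 FPKM (log2 change -0.84 ± 0.16 SE, limma adjusted p = 0.004). BMP genes fell in 6 of 13 and rose in 3, with 3 falls without KO 48 h library 2, and 2 of the 13 passed only through 2iL.

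Called genes were also ranked by their change in FPKM. Mitochondrially encoded genes, small RNAs, pseudogenes, unnamed transcripts and symbols with several entries were left out of that ranking. Within it the largest gains were in Fth1, the ferritin heavy chain, from 386 and 419.5 FPKM to 1009 and 974 FPKM (log2 change 1.3 ± 0.05 SE, limma adjusted p = 2.5e-06), followed by Tmsb4x and Actb, from 1361 and 1378 FPKM to 1702 and 1716 FPKM (log2 change 0.32 ± 0.04 SE, limma adjusted p = 0.00097). Tuba1a, an alpha-tubulin, rose from 179 and 196 FPKM to 421 and 405 FPKM (log2 change 1.14 ± 0.06 SE, limma adjusted p = 7e-06). Npm1, a nucleolar protein, also stood among them at 1751 and 1892 FPKM in 2iL and 2074 and 2058 FPKM at 48 h. Its call was lost without either KO 48 h library, without wild-type 2iL library 1 or without either wild-type library at 48 h. The largest losses of the same ranking were in Dppa5a, an RNA-binding protein of pluripotent cells, from 2702 and 3049 FPKM to 1525 and 1496 FPKM (log2 change -0.93 ± 0.07 SE, limma adjusted p = 4.7e-05), and in Rps29, a ribosomal protein, from 3165 and 3607 FPKM to 2660.4 and 2475 FPKM (log2 change -0.40 ± 0.07 SE, limma adjusted p = 0.0035). Apoe, an apolipoprotein, fell from 785 and 865 FPKM to 264 and 268 FPKM (log2 change -1.63 ± 0.05 SE, limma adjusted p = 1.3e-06). Rps14, another ribosomal protein, fell by 0.34 log2 units, Mt2, a metallothionein, by 0.53 and Rpl13a by 0.24, a call lost without KO 2iL library 2 or either KO 48 h library (limma adjusted p = 0.066 to 0.11). Mt1 came next, followed by Mylpf, a myosin light chain, from 578 and 612 FPKM to 166 and 138 FPKM (log2 change -1.97 ± 0.14 SE, limma adjusted p = 3.8e-05). These are abundant transcripts, and both 48 h libraries lay outside the range of the 2iL libraries in each.

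A few genes passed between near absence and clear expression. Leaving out symbols of small RNAs, pseudogenes and unnamed transcripts, 16 genes were below 0.1 FPKM in both 2iL libraries and at least 1 FPKM in both 48 h libraries, and 14 did the opposite. Those named here were chosen after their values were seen. Mt3, the brain-type metallothionein, stood at 0 in each 2iL library and at 9.22 and 10.04 FPKM at 48 h. Neurog3, a proneural bHLH factor, was at 0 and 0.0396 FPKM in 2iL and 3.05 and 2.13 FPKM at 48 h, Ebf3, a factor of neuronal differentiation, at 0.0169 and 0.0456 FPKM in 2iL and 2.05 and 2.16 FPKM at 48 h and Tff3, a secreted trefoil peptide, at 0 and 0 FPKM in 2iL and 3.72 and 2.75 FPKM at 48 h. In the other direction Pkd1l2, a polycystin-like membrane protein, was at 5.12 and 6.07 FPKM in 2iL and 0.0344 and 0.0722 FPKM at 48 h and Cnga4, a subunit of olfactory cation channels, at 2.61 and 2.81 FPKM in 2iL and 0.0212 and 0.021 FPKM at 48 h. Being chosen on these levels, they carry no test.

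The change in the knockout differed from the change in wild type for many of these genes. In wild type 56.5% of all entries tested were called. Of the 3342 genes that rose in the knockout, 1777 rose in wild type, 503 fell and 1062 were not called. Of the 2842 that fell, 1540 fell in wild type, 354 rose and 948 were not called. The interaction was called for 5169 of the 12302 genes, 2708 higher in the knockout and 2461 lower. Where both genotypes rose and the interaction was called, the knockout change was smaller in 420 genes and larger in 287, and where both fell it was smaller in 441 and larger in 230. Across the 12302 genes the 2 changes correlated with Pearson r = 0.48 and Spearman rho = 0.43, a description over genes that share libraries and are not independent.

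Among genes whose change was higher in the knockout, 8 of the 10 with the largest difference rose in the knockout and fell in wild type. Tgm1, a transglutaminase of epithelia, rose from 0.944 and 1.26 FPKM to 6.44 and 7.29 FPKM in the knockout, while in wild type it went from a mean of 21.8 to 1.54 FPKM (difference 5.08 ± 0.15 SE, limma adjusted p = 1.7e-06). Aire, a transcription factor best known from thymic epithelium, rose from 1.88 and 1.84 FPKM to 17.9 and 17.9 FPKM, and in wild type it went from a mean of 9.13 to 1.53 FPKM (difference 4.72 ± 0.12 SE, limma adjusted p = 1.1e-06). These genes moved in opposite directions in the 2 genotypes. Emp1, an epithelial membrane protein, rose from 14.9 and 16.3 FPKM to 40.9 and 41.9 FPKM and in wild type went from a mean of 6.01 to 0.369 FPKM (difference 3.71 ± 0.13 SE, limma adjusted p = 3.4e-06). Efhd1, Dnmt3l, Cyp2s1 and Ripply1 did so too. Notum and Nr0b1 fell in both genotypes, and far more in wild type.

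Of the genes whose change was lower in the knockout, 7 of 10 fell in the knockout and rose in wild type. Vegfa, a growth factor for vessels, fell from 8.21 and 11.3 FPKM to 2.55 and 2.17 FPKM and in wild type went from a mean of 11.3 to 37.1 FPKM (difference -3.3 ± 0.20 SE, limma adjusted p = 3.3e-05). H2-Q4, a class I histocompatibility gene, fell from 7.9 and 8.29 FPKM to 2.07 and 2.41 FPKM and in wild type went from a mean of 1.995 to 9.64 FPKM (difference -3.32 ± 0.12 SE, limma adjusted p = 3.8e-06). Class I genes are near-identical copies, so reads may be divided among them. Gpc1, a heparan sulfate proteoglycan, fell from 6.22 and 7.33 FPKM to 2.54 and 2.84 FPKM and in wild type went from a mean of 2.42 to 12.3 FPKM (difference -3.03 ± 0.15 SE, limma adjusted p = 1.2e-05). Others rose in both genotypes by unequal amounts: Pim2, a serine/threonine kinase, rose from 9.78 and 11.7 FPKM to 51.01 and 50.6 FPKM in the knockout and from a mean of 10.3 to 467 FPKM in wild type (difference -3.23 ± 0.13 SE, limma adjusted p = 6.7e-06), and Dusp4, a phosphatase of ERK, rose from 2.06 and 2.55 FPKM to 5.44 and 5.82 FPKM and from a mean of 1.76 to 46.5 FPKM in wild type (difference -3.1 ± 0.12 SE, limma adjusted p = 5.9e-06).

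**Figure D5:**
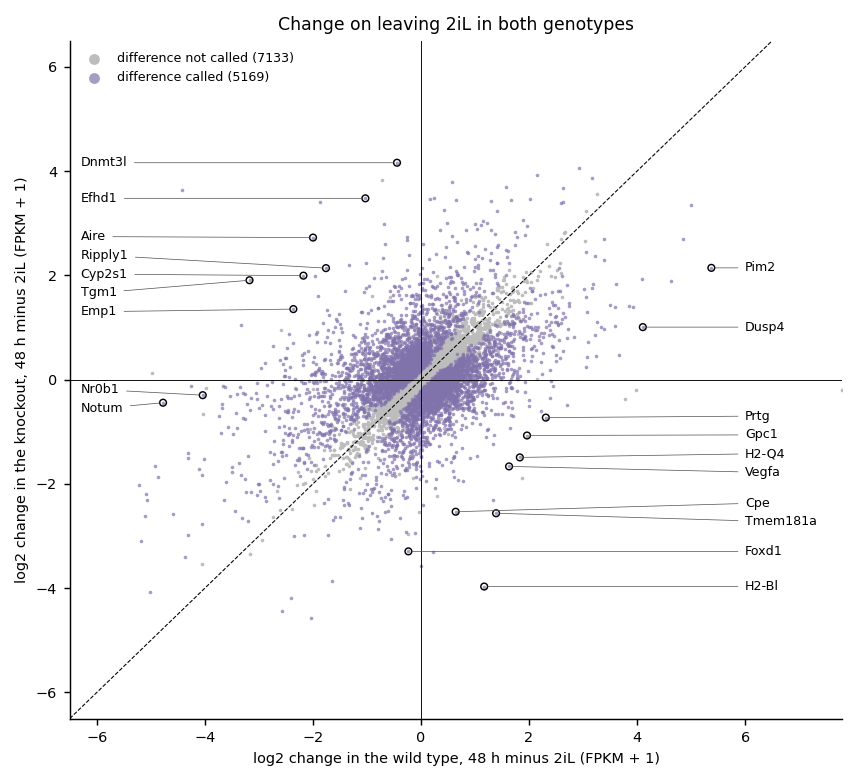
Log2 change from 2iL to 48 h in wild type (x axis) and in the knockout (y axis) of the 12302 genes, FPKM + 1; purple marks the 5169 genes whose changes differ by the limma interaction test and grey the others, and the dashed line marks equal changes. Genes among the 10 largest differences in each direction are circled and named: those higher in the knockout lie at the left, above the dashed line, and those lower in the knockout lie below it.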

How the data were processed

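RNA of mouse embryonic stem cells was sequenced from 8 libraries, 2 each of Dgcr8-/- and wild-type cells in 2iL and after 48 h in N2B27, bFGF and KSR. Libraries were made by a dUTP protocol from Trizol total RNA per the labels' protocols, while another label gives polyA RNA. FPKM per gene are as the authors deposited them. Reads were handled with STAR 2.5.0 and Cufflinks 2.2.1 on mm10, per the submitters' processing notes. Counts were not used here, so read depth is unknown and precision is judged from the spread between libraries. FPKM are shares of a library, so an abundant gene that changes shifts the others, and genes with near-identical copies may share fragments.

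The table has 41258 entries with 41202 identifiers, and 56 repeated identifiers were kept as separate entries. Groups were taken from the sample titles. log2(FPKM + 1) of the 13172 entries at 1 FPKM in at least 2 of 8 libraries was fitted with limma 3.58.1 in R 4.3.3, with 4 group means, a mean-variance trend and 4 residual degrees of freedom (prior 3.11). All 4 groups share an estimate of the spread because 2 libraries a group give little of their own. Contrasts were KO 48 h minus KO 2iL, the same in wild type, and their difference (the interaction). Benjamini-Hochberg adjustment covered all entries tested, and calls are at an adjusted p below 0.05.

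The genes and the lists were chosen with earlier results of these data known, so list counts are descriptions without a list test. The genes named are the 12 largest rises and falls at a mean of at least 5 FPKM, the 8 largest in FPKM each way, up to 3 rises and 3 falls and the most abundant gene of each list, the 10 largest interactions each way, and Dgcr8. A few genes that this rule names are not reported here. Alternatives were another pseudocount, filters, scalings, a replicate block and leaving out each library. Same-numbered libraries were not treated as paired. Promoter windows are from RefSeq, build GRCm38.p6, matched by symbol. Small RNA libraries of the series were not used here.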

Additional observations from a re-analysis of the deposited data

Results flagged for a closer look

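The genes below were kept only if their knockout and wild-type changes from 2iL to 48 h differed by the test of the difference itself (limma interaction, adjusted p below 0.05). That all are called is therefore a condition of the choice. The interaction was called in 42.8% of all entries tested, so a call alone does not set a gene apart. Values are the knockout change minus the wild-type change in log2 units. The genotypes are 1 line each, so line and deletion cannot be told apart. Of the 42 genes, 19 are among the 10 largest differences in each direction, and 23 were named for their change in the knockout. Foxd1, Neurod1, Dll1, Edn2, Phf19 and Ctsc passed the minimum through only 1 knockout group, so their differences are descriptions.

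Among the most positive, Tgm1 had 5.08, Aire 4.72, Dnmt3l 4.6, Efhd1 4.51 and Notum 4.33. Cyp2s1, a cytochrome P450, had 4.17, Ripply1, a corepressor of somite formation, 3.9, Nr0b1 3.74 and Emp1 3.71. Among the 10 most negative, H2-Bl, a class I histocompatibility gene, had -5.14 and Tmem181a, a membrane protein, -3.95. H2-Q4 had -3.32, Vegfa -3.30, Pim2 -3.23, Cpe, a carboxypeptidase of prohormones, -3.18, and Dusp4 -3.10. Foxd1 had -3.06, Prtg, an immunoglobulin-family membrane protein, -3.04 and Gpc1 -3.03.

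Genes of neural character and signalling differed in both directions: Neurod1 by 3.22, Dll1 by 1.77, Btg2 by 1.58, Crmp1 by 2.05, Stmn1 by 1.52, Gli1 by 2.24 and Crabp2 by 1.10, while the neurofilament gene Nefm differed by -1.2 and Syt11, a synaptotagmin, by -1.02. Of the cytoskeleton, matrix and secreted genes, Edn2 differed by 3.29, Anxa2 by 2.82, Tmsb4x by 2.75, Sparc by 2.38 and S100a6 by 2.18. Nqo1 differed by 2.13, Phf19 by 1.98, Rhox5 by 2.52 and Cdc20 by 0.76. Of the metabolic genes, Tdh differed by 1.2, since it fell less in the knockout, and Asns by -1.56, Scd1 by -1.26, Hexa by -1.98 and Ctsc by -1.51.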

How the results depend on the processing

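The 6184 calls of the knockout change numbered 4312 to 6579 under the other settings that kept all libraries, and 4778 to 6019 when 1 library was left out. Rises ranged from 2587 to 3272 and falls from 2182 to 2855 in those that left out a library. Interaction calls ranged from 4067 to 4937 there, against 5169. Requiring a mean of at least 5 FPKM removes genes by construction and left 334 rises and 283 falls of at least 2-fold, and 1602 interactions lower in the knockout. Under that filter the proneural list had 2 rises, the Notch list 2 falls and the WNT targets 4 falls, and no Hox gene was left. Of the calls, 54.0% were rises. That share was 48.3% under median-ratio scaling, 49.2% without KO 2iL library 1 and 59.0% without KO 2iL library 2. Scaling moved the median of all genes by -0.04 and -0.02 log2 units.

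A replicate block gave 5928 calls, 3213 rises and 2715 falls, and 4910 interactions, each within 1.5 times of the fit without it. Same-numbered libraries deviated together with a correlation of 0.18 between the knockout groups and -0.12 between the wild-type groups, so the numbers were not taken as pairs. With the wild-type 48 h numbers crossed, an alternative chosen after seeing the data, 5985 calls and 4936 interactions were found.

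The smallest changes are limited by 2 libraries a group: the median standard error of a log2 change was 0.09, and it was 0.12 below a mean of 5 FPKM.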

Other observations

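Genes of basic cell functions moved by little. Cytoplasmic ribosomal protein genes had a median log2 change of -0.13, with 26 of 85 called as falls and 1 as a rise (5 without KO 2iL library 2). The number of falls depends on single libraries: it was 5 without KO 48 h library 2, 9 without KO 48 h library 1, 16 without KO 2iL library 2 and 64 without KO 2iL library 1, and 15 or 16 without a wild-type library. Mitochondrially encoded genes were called in 3 of 13. Splicing factors of the SR and hnRNP families rose in 8 of 30 and fell in 2. The rises numbered 13 without KO 2iL library 2. Without KO 2iL library 1 the falls numbered 5, and 1 was left without KO 2iL library 2 or without either KO 48 h library. Chaperones of the endoplasmic reticulum rose in 5 of 18 and fell in 1. Over all entries tested 26.5% were called as rises and 21.8% as falls, so the rises of the splicing factors and these chaperones were near that share.

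Large families were spread over both directions, as were all entries tested, with 26.5% called as rises and 21.8% as falls. Of 187 measured solute carriers 10 passed only through the 48 h libraries and 9 only through 2iL. Of the 168 others 43 rose and 49 fell. Slc38a2, a neutral amino acid transporter, rose from 41.4 and 42.1 FPKM to 158 and 157 FPKM (log2 change 1.89 ± 0.04 SE, limma adjusted p = 3.3e-07), and Slc16a9, of the monocarboxylate transporter family, went from 12.5 and 15.3 FPKM to 0.958 and 0.934 FPKM (log2 change -2.93 ± 0.12 SE). Of 321 numbered Zfp zinc-finger genes 52 rose and 69 fell, or 34 rose without KO 48 h library 2, and 200 were not called. Among the 321 Zfp genes 10 passed only through the 48 h libraries and 4 only through 2iL, and of the 307 others 43 rose and 66 fell. PI3K and AKT pathway genes rose in 8 of 24 and fell in 4, none by 2-fold.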
